A study of Mus musculus with 24 samples.

Results

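The comparison described here asks what loss of Phf6 did in the same way in 3 sorted bone marrow populations of the mouse. It used all 24 libraries of the series: 3 populations from each of 8 mice, 4 mice with Phf6 deleted and 4 control mice, in 4 litters with 1 mouse of each kind. The sorted cells were HSC, the haematopoietic stem cells, MPP, the multipotent progenitors, and HPC-1, a more restricted progenitor. In the deleted mice the X-linked Phf6 gene carried lox sites on the single X chromosome of a male, and the strain label names the Tie2-cre transgene, which is active in endothelial and haematopoietic cells. The label Phf6lox/Y;Tie2-creTg/+ stands on both groups, so the Cre status of the controls is not stated, and no age was given. Deletion driven by Tie2-cre is not limited to the sorted cells, since the transgene is active in the blood and vessel lineages of the same animal.

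For each gene a mouse received 1 value, the mean over its 3 populations of log2 CPM (a gene's counts relative to the scaled total of its library) after centring on the midpoint of the genotype means of that population. The 4 deleted and 4 control values were then compared with limma, and a gene was called at an adjusted p under 0.05. In parallel, each deleted library was set against that of the control littermate, which gave 12 differences a gene, and a gene was termed consistent when all 12 had 1 sign. The 3 differences of a litter come from the same pair of mice, so the 12 are not independent. Of 12843 genes tested, 132 were consistent (1.03%).

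Phf6 encodes a protein with plant homeodomain-type zinc fingers that binds chromatin and resides in the nucleolus, and it is mutated in human T-cell acute lymphoblastic leukaemia. Type I interferons signal through a receptor pair to a complex that includes IRF9 and binds the interferon-stimulated response element in the promoters of antiviral genes. Interferon gamma induces immunity-related GTPases and, through the coactivator CIITA, MHC class II genes, which present peptides to helper T cells. In marrow, interferon is known to drive stem cells out of quiescence.

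Total counts ran from 9658167 to 27786830 a library. HSC and MPP libraries were made with SMART-Seq and HPC-1 libraries with TruSeq, so levels were not compared between HPC-1 and the other populations, only effects. 1 MPP library, from deleted mouse 3, was set off from the rest, with 9.339% of its counts in its top 10 genes, against 2.948% to 5.083% in the other 23 libraries, and with 14710 genes detected. Slamf1, which encodes the sort marker CD150, lay between 9.08 and 53.8 CPM in deleted HSC and between 53.2 and 88.0 CPM in control HSC, and at or below 3.47 CPM in every MPP and HPC-1 library. The p-values of the shared and single-population tests measure the spread between mice. Those of the test between populations measure the spread left between libraries once the mouse is taken out as a block.

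Phf6 itself was lower in all 12 differences. HSC of deleted mice 1 to 4, numbered by litter, held 37.8, 54.0, 54.5 and 81.5 CPM, against 187, 221, 244 and 224 CPM in control HSC. MPP libraries held 49.1, 67.7, 49.3 and 55.5 CPM in deleted mice, against 193, 170, 230 and 181 CPM in controls. HPC-1 libraries held 33.0, 24.2, 32.2 and 21.0 CPM in deleted mice, against 108, 142, 118 and 98.8 CPM in controls. The groups did not overlap in any population, and some Phf6 reads remained in every deleted library. The shared log2 difference was -1.96 ± 0.10 (SE, 4 mice a group; adjusted p = 1.90e-06). The counts cover the whole gene (chromosome X, 52912214 to 52956961, mm10), and the labels do not say which exons the lox sites enclose. In bulk libraries, fewer cells with a transcript and less of it per cell cannot be told apart.

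The shared comparison called 13 genes (0.101% of those tested), of which 10 were higher in deleted mice (0.0779%) and 3 lower (0.0234%). The higher genes were Slc6a15, Gm4951, Iigp1, Lin28b, Rsad2, H2-Ab1, Ifi44, Ifit1, Pbx3 and Slc35d3, and the lower ones Phf6, Sdsl and Nefh. Of the 13, 8 were consistent in 12 of 12 differences and 5 had 11 of 12. An unadjusted p under 0.05 was reached by 1142 genes (8.89%), 570 of them higher (4.44%) and 572 lower (4.45%). In all, 7 of the 13 passed the threshold in no single population tested alone with limma: Rsad2, H2-Ab1, Ifi44, Ifit1, Nefh, Pbx3 and Slc35d3. Phf6 was the 1 gene that passed in each of the 3. In single populations 1 gene was called for HSC (0.00779%), 8 for MPP (0.0623%) and 8 for HPC-1 (0.0623%). With the litter as a block 96 genes were called for HPC-1, and with no variance trend 1. Over the alternatives tried, the count ran from 1 to 25 for MPP, the lowest without the filter on low counts and the highest without deleted mouse 3 or its MPP library, and from 0 to 1 for HSC.

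The number of calls moved with the model of the variance. The trend used here runs over the mean log2 CPM; a first fit had run it over the centred values, which carry no level, and had called 6 genes, 5 of them among the 13. With no trend of the variance, 5 genes passed, among them Phf6, Slc6a15 and Gm4951 of the 13, while the other 10 had adjusted p-values between 0.0544 and 0.116. With the litter as a block, 11 genes passed (0.0856%), 9 of them among the 13. Without the filter on low counts 3 genes passed. Removing the HPC-1 libraries left 2 calls, Phf6 and Lin28b, removing the MPP libraries 8, and removing the HSC libraries 23. Leaving out 1 mouse gave between 4 and 26 calls, the lowest without control mouse 4 and the highest without deleted mouse 3. Without control mouse 2 the count was 6 and without deleted mouse 2 it was 7. Phf6, Slc6a15, Gm4951 and H2-Ab1 passed in all 8 fits that left out 1 mouse.

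**Figure D1:**
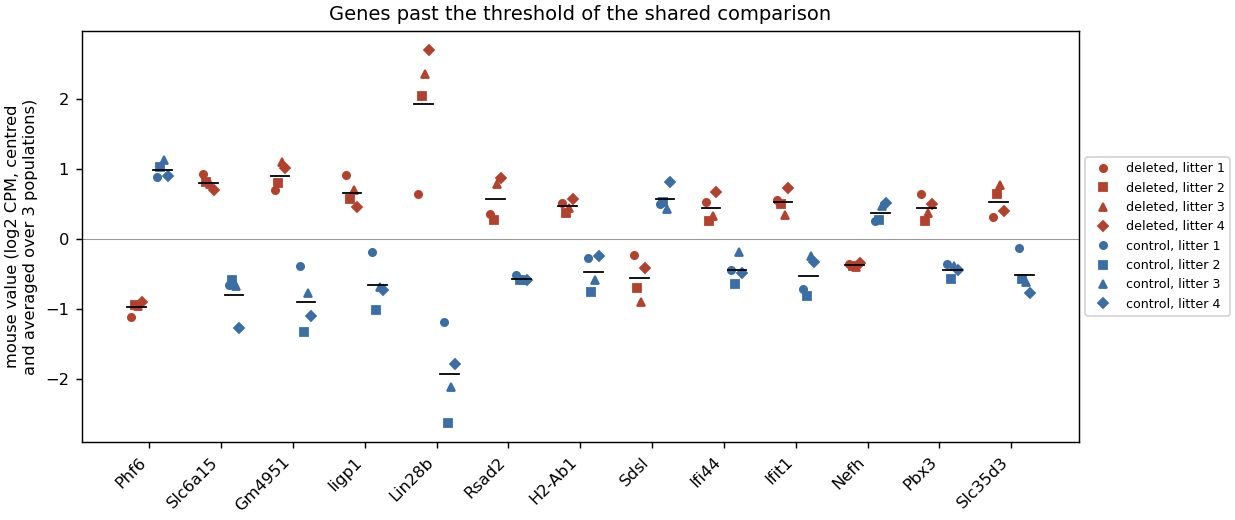
Mouse values (vertical axis, log2 CPM centred within each population and averaged over HSC, MPP and HPC-1) of the 13 genes called in the shared comparison, with deleted mice left of control mice for each gene. Each point is 1 mouse, its shape gives the litter, and the black bar is the group mean. The groups do not overlap for any of the 13, and Lin28b has the widest spread among deleted mice.

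Counted over the 12 differences, 63 genes were higher in the deleted mouse every time (0.491% of genes tested) and 69 were lower every time (0.537%). Their log2 differences had medians of 0.67 and -0.50, beside -0.02 over all genes tested. These medians describe genes chosen by their direction and carry no test. Just outside the rule, 200 genes were higher in 11 of 12 with a median of 0.46, and 206 were lower in 11 of 12 with a median of -0.40. The sizes inside the rule reach down to small ones: M6pr, the cation-dependent mannose 6-phosphate receptor, was higher in 12 of 12 with a log2 difference of 0.16 ± 0.11 (adjusted p = 0.70). In turn, 17 higher and 17 lower consistent genes differed by more than 1 on the log2 scale. In HSC alone, 788 genes were higher (6.14%) and 855 lower (6.66%) in 4 of 4 litters. In MPP these counts were 1439 (11.2%) and 1364 (10.6%), and in HPC-1 they were 990 (7.71%) and 1060 (8.25%).

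**Figure D2:**
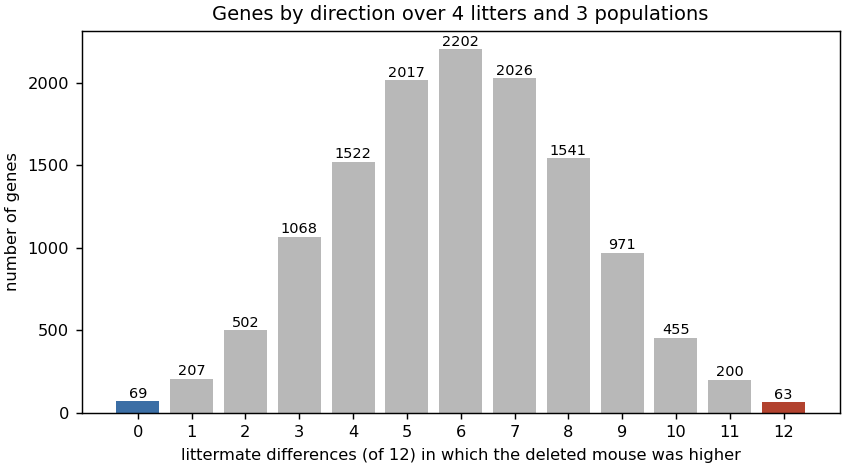
Number of genes (vertical axis) by how many of the 12 littermate differences had the deleted mouse higher (horizontal axis, 0 to 12). The peak is at 6 with 2202 genes, and the coloured ends hold the 69 genes lower and the 63 genes higher in all 12.

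The consistent genes were mostly protein-coding, 58 of the 63 higher and all 69 lower ones, beside 91.2% of genes tested. Of the higher genes, 5 lie on the X chromosome (7.94%), against 1 of the lower genes (1.45%), which is Phf6, and 3.38% of all genes tested. The 5 are Itm2a, Ap1s2, Armcx6, Rbmx and Trappc2. By population, the 63 higher genes had median log2 differences of 0.64 for HSC, 0.80 for MPP and 0.60 for HPC-1, and the 69 lower genes -0.61, -0.54 and -0.38. The MPP library of deleted mouse 3 gave the largest of the 12 medians in size among the lower genes, -0.94, beside -0.24 to -0.61 in the other 11 differences. Without that library, after scaling anew, 152 genes were consistent in the 11 differences left, 128 of the 132 among them, and 12 of the 13 calls remained.

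**Figure D3:**
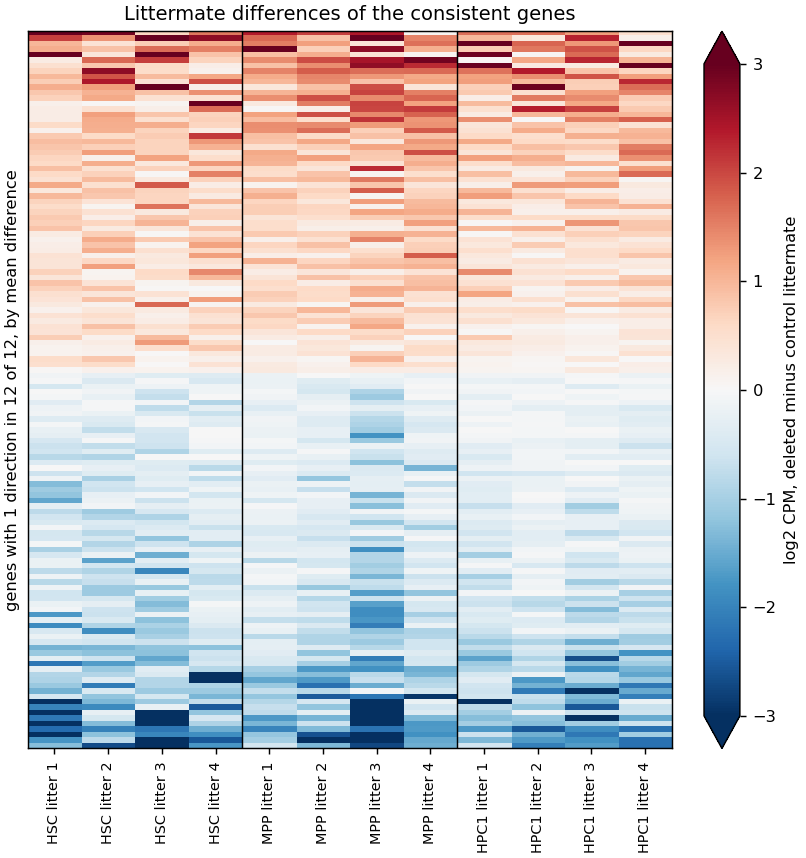
Littermate differences (colour, log2 CPM of the deleted minus the control mouse) of the 132 consistent genes, 1 row a gene, ordered by mean difference. Columns are the 4 litters of HSC, MPP and HPC-1. All cells of a row share a sign, and the column of MPP litter 3 is the deepest in colour among the lower genes, with a median of -0.94.

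Interferon and antigen presentation genes were counted in 4 lists, which cover the type I interferon response, interferon-inducible GTPases, and class II and class I presentation. They hold 97 tested genes. Of these genes, 18 were among the 63 higher in 12 of 12, none among the 69 lower, and 6 among the 13 called. The shares over all genes tested were 0.491%, 0.537% and 0.101%. These lists were written with earlier results of these libraries known, so the counts describe and support nothing by themselves.

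Of 51 type I interferon response genes tested, 49 lay above 0 in the shared comparison, beside 46.9% of all genes tested. Of these, 3 passed the threshold, 11 were consistent and 29 had an unadjusted p under 0.05, all of them higher. Over all genes tested, 0.0779% passed as higher, 0.491% were higher in 12 of 12 and 4.44% were higher with an unadjusted p under 0.05. The median log2 difference of the list was 0.44. In all, 21 members had mouse values that did not overlap between the groups, against 5.27% of all genes tested: 2.41% with the deleted mice above and 2.86% with them below. Sorted by mouse, the median of the list was 0.26, 0.09, 0.18 and 0.35 in deleted mice 1 to 4, against -0.22, -0.42, -0.10 and -0.20 in control mice.

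Rsad2 encodes viperin, an interferon-induced enzyme that makes a chain-terminating nucleotide against viral RNA synthesis. In HSC it stood at 54.0, 64.4, 52.1 and 63.4 CPM in deleted mice and at 30.7, 31.2, 28.2 and 24.4 CPM in controls. The MPP values were 69.5, 59.7, 170 and 114 CPM in deleted mice and 34.1, 28.6, 41.9 and 39.8 CPM in controls, and those of HPC-1 were 24.3, 20.01, 25.2 and 36.4 CPM in deleted mice and 14.1, 14.3, 10.8 and 13.1 CPM in controls. Deleted libraries lay above all control libraries in each population. The shared difference was 1.14 ± 0.15 on the log2 scale (adjusted p = 0.00945). The call was lost without control mouse 2 (adjusted p = 0.0543) and without control mouse 4 (0.0593), at differences of like size.

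Ifi44, an interferon-induced cytoplasmic protein, was also higher in 12 of 12. Its levels were 174, 122, 118 and 190 CPM in deleted HSC and 91.8, 62.7, 74.4 and 77.8 CPM in control HSC. Deleted MPP held 185, 214, 211 and 278 CPM and control MPP 103, 95.0, 167 and 113 CPM. Deleted HPC-1 held 56.6, 40.3, 48.9 and 46.6 CPM and control HPC-1 25.5, 26.8, 33.6 and 25.1 CPM. No deleted library overlapped with the controls of its population. The shared difference was 0.89 ± 0.13 (adjusted p = 0.0197), and adjusted p rose to between 0.0635 and 0.109 without deleted mouse 1 or without control mouse 1, 2 or 4.

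Ifit1, which binds viral RNA that lacks the cap methylation of host mRNA, was higher in 11 of 12. The exception was HSC of litter 3, with 31.6 CPM in the deleted mouse and 33.8 CPM in the control mouse. Deleted MPP held 108, 81.8, 93.7 and 137 CPM, against 42.0, 30.7, 61.6 and 47.7 CPM in control MPP. Deleted HPC-1 held 13.6, 12.8, 16.0 and 13.02 CPM, against 5.87, 7.62, 6.74 and 7.23 CPM in control HPC-1. The shared difference of 1.05 ± 0.16 passed (adjusted p = 0.0282), but not with the litter block (0.0573), nor without any 1 of 6 mice (0.0589 to 0.119; all but deleted mouse 3 and control mouse 3).

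Members of the same list that were consistent without passing the threshold acted at several steps. Among the factors that carry the signal, Irf7 had a log2 difference of 0.78 ± 0.18 (adjusted p = 0.18) and Irf9 0.51 ± 0.12 (0.17). In MPP, Irf7 stood at 161, 109, 110 and 273 CPM in deleted mice and at 78.8, 71.4, 80.3 and 128 CPM in control mice, so the groups overlapped there, while each deleted mouse exceeded its littermate. Usp18, a protease that removes ISG15 and dampens the receptor, differed by 0.67 ± 0.16 (adjusted p = 0.21). Among effectors, Rtp4 differed by 0.69 ± 0.13 (0.0809), Cmpk2, a mitochondrial nucleotide kinase, by 0.60 ± 0.12 (0.0943), Isg15, the ubiquitin-like modifier, by 0.58 ± 0.19 (0.42), and Eif2ak2, the RNA-activated kinase PKR, by 0.43 ± 0.11 (0.28).

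The receptors and signalling factors that stand above these genes were counted apart. Of 15 genes for interferon receptors and signalling, 8 lay above 0, beside 46.9% of all genes tested. None of them passed the threshold, none was consistent and none reached an unadjusted p of 0.05. Their median was 0.06. Ifnar1, a chain of the type I receptor, was at -0.08 and Ifngr1, a chain of the gamma receptor, at 0.14. Stat3 had the lowest p with a value of -0.25, followed by Irf5 at 0.32.

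**Figure D4:**
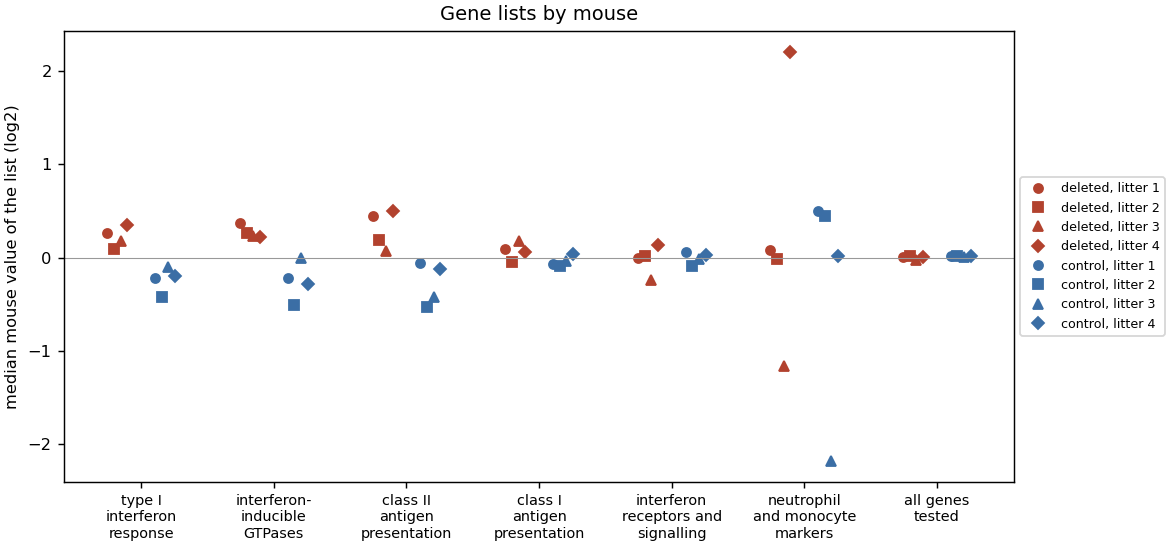
Median mouse value of 6 gene lists and of all genes tested (vertical axis, log2), with the 4 deleted mice left of the 4 control mice for each list; the shape of a point gives the litter. The groups do not overlap for the interferon response, the GTPases and class II presentation, while for neutrophil and monocyte markers deleted mouse 4 lies at 2.20 and control mouse 3 at -2.18.

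Promoters of 4 interferon-inducible genes are shown to give examples of a letter pattern close to the interferon-stimulated response element. The pattern searched was GAAA, then 2 bases of any kind, then GAAA. It was looked for on both strands over the 250 bases before each gene's start, in RefSeq sequences of build GRCm38.p6. It was found in 6 of the 46 genes higher in 12 of 12 that had a sequence (13%) and in 2 of the 55 lower ones (3.64%). Beside these stand 322 of 9874 genes tested that had a sequence (3.26%) and 3.46% of all 27025 genes with a promoter sequence. In the type I interferon response list, 15 of 38 had it (39.5%). Of the 11 consistent genes of that list, a match was found for Rsad2, Isg15 and Oas1g. A match is a string of letters and not a shown binding site, and the list was partly known for such elements. The stretches printed end at the base before the gene's start, run 5′ to 3′ on the strand of the gene, and carry the matches in capitals. They are Rsad2 (chr12:26456453-26456602, minus strand), Ifit1 (chr19:34640769-34640888, plus strand), Isg15 (chr4:156200819-156200918, minus strand) and Igtp (chr11:58199476-58199555, plus strand). Ifit1 was higher in 11 of 12, and Igtp is from the GTPase list described next.
Rsad2: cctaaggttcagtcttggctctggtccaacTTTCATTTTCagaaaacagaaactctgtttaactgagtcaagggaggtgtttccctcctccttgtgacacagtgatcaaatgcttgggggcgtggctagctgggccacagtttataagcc
Ifit1: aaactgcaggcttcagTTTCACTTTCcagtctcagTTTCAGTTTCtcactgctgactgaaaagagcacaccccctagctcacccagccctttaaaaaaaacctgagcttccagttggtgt
Isg15: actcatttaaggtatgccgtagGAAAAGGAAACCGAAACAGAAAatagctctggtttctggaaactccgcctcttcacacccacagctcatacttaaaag
Igtp: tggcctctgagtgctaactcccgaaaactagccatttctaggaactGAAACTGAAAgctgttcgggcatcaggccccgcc
Ifit1 holds 2 separate matches and Rsad2 1, both on the opposite strand, while Isg15 holds 3, each overlapping the next.

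All 18 interferon-inducible GTPases tested lay above 0, with a median of 0.54. Of these, 2 passed the threshold, 2 were consistent in 12 of 12 and 15 had an unadjusted p under 0.05. The shares of higher genes over all genes tested were 0.0779%, 0.491% and 4.44%, and 46.9% lay above 0. The list median by mouse was 0.37, 0.26, 0.23 and 0.22 in deleted mice and -0.22, -0.51, -0.0047 and -0.29 in control mice. Members of this family share long stretches of sequence, and reads that fit several copies may have been lost or split in counting.

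Iigp1, an immunity-related GTPase that attacks the vacuoles of intracellular parasites, was higher in 12 of 12. Deleted HSC held 214, 192, 127 and 139 CPM and control HSC 108, 51.6, 65.5 and 61.8 CPM. Deleted MPP held 264, 210, 286 and 222 CPM and control MPP 122, 75.6, 115 and 101 CPM. Deleted HPC-1 held 45.6, 31.4, 45.8 and 32.1 CPM and control HPC-1 19.7, 11.8, 12.3 and 13.7 CPM. The groups stood apart in all 3 populations. By population the difference was 1.25 ± 0.24 for HSC, 1.26 ± 0.19 for MPP and 1.43 ± 0.20 for HPC-1. The shared difference was 1.31 ± 0.16 (adjusted p = 0.00943), and without control mouse 4 it was 1.29 with an adjusted p of 0.0579.

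Gm4951, a predicted gene on chromosome 18 near Iigp1, differed by 1.80 ± 0.20 (adjusted p = 0.00346). Only HSC of litter 1 went the other way, with 48.1 CPM in the deleted and 52.6 CPM in the control mouse. Deleted MPP held 106, 96.3, 167 and 122 CPM against 44.9, 21.4, 39.2 and 32.6 CPM in control MPP, and deleted HPC-1 held 7.95, 7.16, 11.7 and 8.02 CPM against 1.72, 1.08, 1.89 and 0.837 CPM in control HPC-1. Its effect was 0.92 for HSC, 1.85 for MPP and 2.62 for HPC-1. The difference between populations had an unadjusted p of 0.000546 but did not pass adjustment over all genes (adjusted p = 0.94).

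Igtp, an immunity-related GTPase that guards against intracellular bacteria and parasites, was consistent without passing the threshold (0.70 ± 0.14, adjusted p = 0.11). Among guanylate-binding proteins, which assemble on pathogen membranes, Gbp4 lay at 1.08 and Gbp9 at 0.94, while Gbp5 at 0.01 and Gbp2 at 0.09 were near 0.

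Of 10 class II presentation genes tested, 9 lay above 0, 1 passed the threshold and 4 were consistent. Over all genes tested, 46.9% lay above 0, 0.0779% passed as higher and 0.491% were higher in 12 of 12. The 4 consistent class II genes were the chains that form the surface molecule and the invariant chain: H2-Ab1, H2-Aa, H2-Eb1 and Cd74. Those that load or edit peptide were H2-DMa at 0.19, H2-DMb1 at 0.21, H2-DMb2 at 0.40, H2-Ob at 0.02 and H2-Oa at -0.18. Ciita, the coactivator of the class II promoters, lay at 0.60 and was higher in 10 of 12.

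H2-Ab1, the beta chain of the I-A molecule, stood at 228, 179, 276 and 214 CPM in deleted HSC and at 152, 83.5, 130 and 137 CPM in control HSC. Deleted MPP held 419, 354, 353 and 560 CPM and control MPP 159, 133, 145 and 219 CPM. Deleted HPC-1 held 108, 119, 90.5 and 96.0 CPM and control HPC-1 83.1, 66.0, 54.9 and 70.6 CPM. No groups overlapped, and the shared difference was 0.94 ± 0.12 (adjusted p = 0.00945). It fell short without the MPP libraries (0.72, adjusted p = 0.0658) and without the HPC-1 libraries (1.10, adjusted p = 0.0704).

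H2-Aa, the partner alpha chain, differed by 1.05 ± 0.18 and had an adjusted p of 0.0659 without and 0.0442 with the litter block. Cd74, the invariant chain that escorts class II through the cell, differed by 0.91 ± 0.17 (0.0910 without and 0.0442 with the block). H2-Eb1, the beta chain of the I-E molecule, differed by 1.09 ± 0.21 (adjusted p = 0.0943). Without control mouse 1 all 3 passed, at 0.00158 for H2-Aa, 0.0422 for Cd74 and 0.0356 for H2-Eb1. In HSC the control mouse of litter 1 had 80.1 CPM of H2-Aa, within the range of the deleted mice at 76.5 to 93.0 CPM, while the other controls had 33.4 to 48.2 CPM.

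Class II promoters carry a conserved Y box that the factor NF-Y binds, and 2 of them are shown for that element. Its letters CTGATTGG were present on either strand in 3 of the 7 class II genes with a sequence (42.9%), beside 6.5% of genes tested and 3 of the 46 genes higher in 12 of 12 (6.52%). The stretches are printed as above for H2-Aa (chr17:34287824-34287913, minus strand) and H2-Eb1 (chr17:34305777-34305866, plus strand).
H2-Aa: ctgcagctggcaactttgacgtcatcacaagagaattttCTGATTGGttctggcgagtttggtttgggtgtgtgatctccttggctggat
H2-Eb1: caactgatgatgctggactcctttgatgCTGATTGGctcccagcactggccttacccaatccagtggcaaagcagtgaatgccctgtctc
In both, the capitals lie between 44 and 62 bases before the start.

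Of 18 class I presentation genes tested, 12 lay above 0, beside 46.9% of all genes tested, with a median of 0.07. Over all genes tested, 0.491% were higher in 12 of 12. In this list none passed and 1 was consistent. That was H2-T22, a non-classical class I molecule, at 0.46 ± 0.11 (adjusted p = 0.20). Nlrc5, the coactivator of class I genes, was also at 0.46, and the classical heavy chains H2-K1 and H2-D1 were at 0.18 and 0.08.

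RNA of mature cells was measured beside these groups, since granulocytes, dendritic cells and B cells express interferon or class II genes. Of 18 neutrophil and monocyte markers, 17 lay above 0, beside 46.9% of all genes tested, with a median of 0.53. None of these markers passed, none was consistent, none reached an unadjusted p of 0.05 and none was at 0 throughout a group. Their summed level was 2226 to 13799 CPM in deleted HSC against 1380 to 9108 CPM in control HSC, 1922 to 16184 against 1045 to 3772 CPM in MPP, and 1052 to 3990 against 1284 to 2209 CPM in HPC-1. By mouse, the median of these markers was 0.08, -0.01, -1.16 and 2.20 in deleted mice and 0.50, 0.45, -2.18 and 0.02 in control mice. The deleted mouse had the lower median of the pair in litters 1 and 2 and the higher one in litters 3 and 4. Without deleted mouse 4 the median of the interferon list was 0.39, that of the GTPases 0.59 and that of class II 0.47. That fit kept control mouse 3, which had the lowest marker median at -2.18. What part granulocyte RNA had in the interferon values was not tested.

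Markers of dendritic cells and macrophages summed to 38.4 to 112 CPM in deleted HSC against 57.1 to 129 CPM in control HSC, 544 to 621 against 458 to 502 CPM in MPP, and 924 to 1142 against 840 to 1063 CPM in HPC-1. Of 20, 6 were tested, 4 of them above 0, beside 46.9% of all genes tested. Csf1r, a member of this list, was at 0.45 ± 0.56 and higher in 9 of 12 (adjusted p = 0.83). Zbtb46 was at -1.41 ± 0.63 and lower in 9 of 12 (adjusted p = 0.55). In MPP most of that sum was Flt3, which progenitors express, at 518 to 562 CPM in deleted and 427 to 459 CPM in control mice. The dendritic cell markers Itgax and Xcr1 were at or below 0.493 CPM in all MPP libraries, and Siglech and Cd209d were at 0 in HSC. Members at 0 throughout a group numbered 1 in deleted and 3 in control MPP, and 0 in deleted and 1 in control HPC-1. For B and plasma cells, 5 of 18 markers were tested and 1 lay above 0; the sums were 271 to 343 against 247 to 391 CPM in HSC, 350 to 769 against 324 to 437 CPM in MPP, and 721 to 3133 against 764 to 1594 CPM in HPC-1, with deleted mice given first. The member above 0 was Ighm, the heavy chain of IgM, at 0.88 ± 0.42 and higher in 10 of 12 (adjusted p = 0.59, and 0.24 with the litter block). In MPP it stood at 118.8, 92.4, 98.4 and 304 CPM in deleted mice and at 105, 67.4, 38.8 and 68.9 CPM in control mice, higher in the deleted mouse of all 4 litters. Pax5, Ebf1 and Cd22 were at 0 in every HSC library. Of the 18 B and plasma cell markers, 7 were at 0 throughout HSC of either genotype, 3 throughout MPP and 0 throughout HPC-1. What part dendritic cells, macrophages or B cells had in the interferon and class II values was not tested.

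Outside the 4 interferon and antigen presentation lists, 45 genes were higher in 12 of 12, Pbx3 being the 1 called among them. The called genes Slc6a15, Lin28b and Slc35d3, also outside the lists, were higher in 11 of 12. Slc6a15, a transporter of branched-chain amino acids, had the lowest p after Phf6. Deleted HSC held 106, 88.5, 48.3 and 80.2 CPM and control HSC 47.6, 35.0, 52.7 and 15.4 CPM, with litter 3 as the 1 exception of 12. Deleted MPP held 58.0, 56.8, 109 and 40.3 CPM against 24.5, 19.9, 20.1 and 15.6 CPM in control MPP, and deleted HPC-1 held 18.5, 18.2, 16.1 and 22.04 CPM against 3.63, 7.02, 3.84 and 4.83 CPM in control HPC-1. The shared difference was 1.60 ± 0.17 (adjusted p = 0.00241), and it was 1.41 without the HPC-1 libraries (adjusted p = 0.109). Of the 17 amino acid transporters tested, 14 lay above 0, beside 46.9% of all genes tested, with a median of 0.07. Slc6a15 was the 1 that passed, beside 0.0779% of all genes tested that passed as higher. No member was consistent in 12 of 12.

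The product of Lin28b binds RNA, keeps let-7 miRNAs from maturing and is typical of fetal blood stem cells. It is named here after its values were seen, since it had 11 of 12 differences. Deleted MPP held 86, 133, 72 and 162 counts (4.45, 8.20, 6.97 and 7.26 CPM), against 1, 1, 0 and 0 counts in control MPP. Deleted HSC held 2.94, 14.5, 19.98 and 21.8 CPM against 0.979, 0.612, 3.48 and 2.94 CPM in control HSC. In HPC-1 of litter 1 the deleted mouse was the lower one, with 20 counts against 33, while litters 2 to 4 had 31, 57 and 105 counts in deleted mice against 0, 0 and 3 in controls. The shared log2 difference of 3.86 ± 0.50 (adjusted p = 0.00945) depends on the prior count where controls are at or near 0. In MPP it passed the filter on low counts through the deleted libraries alone. In HPC-1 only the control of litter 1 held more than 3 counts, so there too it passed through the deleted libraries. Its place among the genes tested thus rests in these populations on the group where it was high. The call was lost without deleted mouse 2 (0.0577), without control mouse 4 (0.0579) or without the MPP libraries (3.05, adjusted p = 0.196).

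Pbx3, a homeodomain partner of HOX proteins, was higher in 12 of 12. It stood at 53.4, 31.5, 55.1 and 46.4 CPM in deleted HSC and at 33.9, 28.3, 23.7 and 32.1 CPM in control HSC. In MPP it was 35.4, 34.8, 36.2 and 30.9 CPM in deleted and 16.7, 14.7, 20.9 and 16.1 CPM in control mice, and in HPC-1 26.2, 20.6, 14.3 and 25.8 CPM in deleted and 11.04, 9.59, 11.8 and 9.89 CPM in control mice. The groups overlapped in HSC only. The shared difference of 0.88 ± 0.14 (adjusted p = 0.0324) did not pass with the litter block (0.0724) and passed in 1 of the 8 fits without a mouse, that without deleted mouse 3; the other 7 gave 0.0589 to 0.161. Among 29 genes of HSC identity tested, 16 lay above 0, beside 46.9% of all genes tested, and the median was 0.05. Pbx3 was the 1 that passed and the 1 higher in 12 of 12, while 1 other member was lower in 12 of 12. An unadjusted p under 0.05 was reached by 2 higher and 2 lower members. Over all genes tested, 0.0779% passed as higher, 0.491% were higher in 12 of 12 and 0.537% lower.

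Slc35d3, of a family of nucleotide sugar transporters, also falls outside the naming rule with 11 of 12. Its shared difference was 1.05 ± 0.17 (adjusted p = 0.0394), and it stood at 38.4, 66.5, 106 and 29.1 CPM in deleted MPP and at 23.4, 19.9, 16.3 and 15.6 CPM in control MPP. It fell short without the MPP library of deleted mouse 3 (0.91, adjusted p = 0.0663), with the litter block (0.0908), and without any 1 of 6 mice (0.0516 to 0.204; all but deleted mouse 3 and control mouse 1).

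Consistent higher genes that missed the threshold included Serpina3f, a serine protease inhibitor, at 1.35 ± 0.25 (adjusted p = 0.0809), and Ctsw, a cysteine protease of cytotoxic lymphocytes, at 0.89 ± 0.16 (0.0809). Serpina3f stood at 46.8, 42.7, 46.5 and 58.3 CPM in deleted MPP and at 16.7, 12.0, 14.4 and 17.9 CPM in control MPP. Its groups stood apart in all 3 populations. The largest difference among the 63 was that of Ifi213, an interferon-inducible member of the AIM2-like family, at 1.87 ± 0.54 (adjusted p = 0.35), with at most 11.3 CPM in any library. Deleted HSC held 104, 55, 1 and 47 counts of Ifi213 against 0, 3, 0 and 9 in control HSC, so the size depends on the prior count. Slc15a2, a peptide transporter, had the next largest difference at 1.69 ± 0.69 (adjusted p = 0.55). In MPP it stood at 70.4, 11.8, 156 and 36.5 CPM in deleted mice and at 21.4, 6.37, 15.6 and 13.03 CPM in controls. Litter 2 was the lowest in both genotypes, and deleted and control mice overlapped.

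Among the lower genes Sdsl, which encodes a serine dehydratase-like enzyme, came next after Phf6. Deleted HSC held 110, 67.0, 103 and 102 CPM and control HSC 133, 146, 130 and 185 CPM. Deleted MPP held 44.4, 28.4, 20.9 and 41.1 CPM and control MPP 88.0, 94.3, 73.7 and 113 CPM. Deleted HPC-1 held 13.1, 12.7, 7.37 and 10.2 CPM and control HPC-1 24.8, 22.3, 26.2 and 26.9 CPM. The groups stood apart in each population. The shared difference was -1.13 ± 0.16 (adjusted p = 0.0125), and it fell short without deleted mouse 2 (0.0624), control mouse 2 (0.0644) or control mouse 4 (0.0732). Of 13 serine and one-carbon metabolism genes tested, 2 lay above 0, beside 46.9% of all genes tested, with a median of -0.08. Sdsl was the 1 that passed or was consistent. Over all genes tested, 0.0234% passed as lower and 0.537% were lower in 12 of 12.

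Nefh, the heavy chain of neurofilaments, showed little spread within groups. It stood at 42.0, 39.5, 33.0 and 33.7 CPM in deleted HSC and at 48.5, 54.6, 65.1 and 52.0 CPM in control HSC. In MPP it was 28.4, 25.2, 24.9 and 30.6 CPM in deleted and 49.9, 46.9, 46.4 and 56.5 CPM in control mice, and in HPC-1 21.9, 24.7, 29.4 and 25.8 CPM in deleted and 38.4, 37.9, 48.3 and 54.1 CPM in control mice. No population had overlapping groups. The shared difference of -0.75 ± 0.12 passed (adjusted p = 0.0304), but not with the litter block (0.0907), nor without any 1 of 6 mice (0.0635 to 0.188; all but deleted mice 3 and 4).

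**Figure D5:**
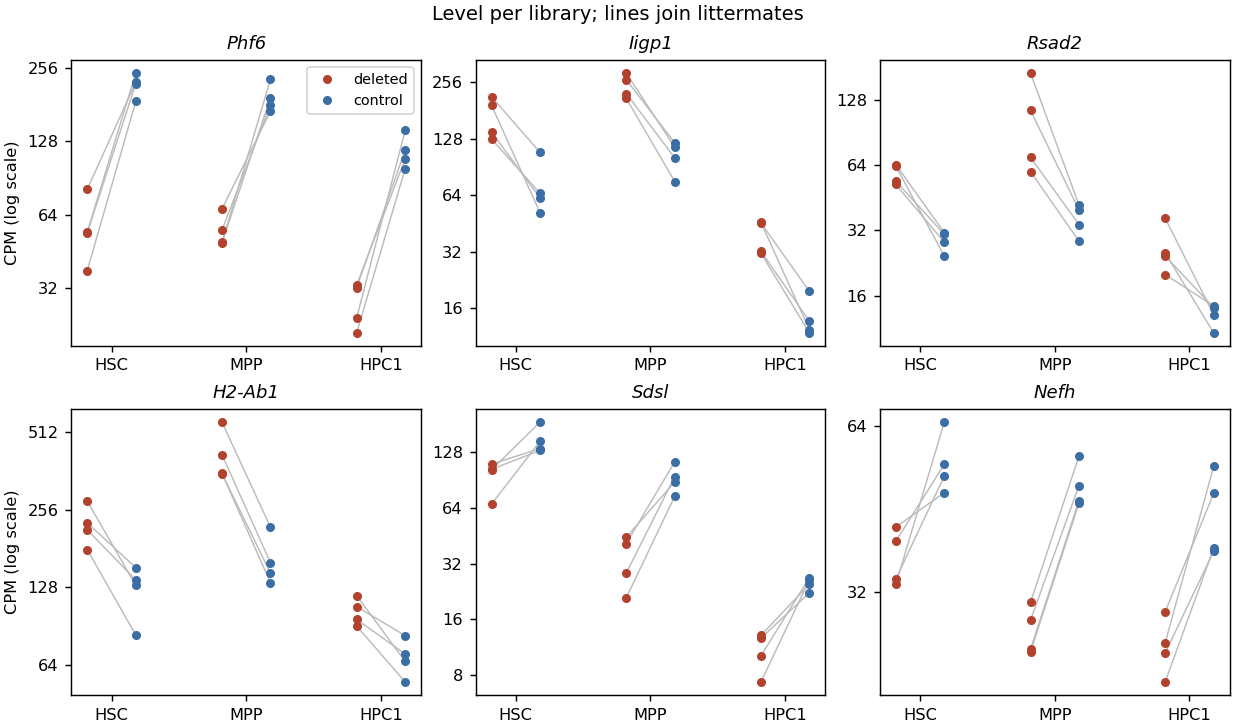
Level in every library (vertical axis, CPM, log scale) of Phf6, Iigp1, Rsad2, H2-Ab1, Sdsl and Nefh by population, with deleted mice left of control mice and grey lines joining littermates. Every line of a gene slopes the same way, and deleted and control libraries do not overlap within a population.

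Further consistent lower genes missed the threshold. Bcam, a laminin receptor of the surface, was at -2.16 ± 0.40 (adjusted p = 0.0809), the largest shared difference in size among the 69. By population it was at -3.32 ± 0.97 for HSC, -1.53 ± 0.35 for MPP and -1.64 ± 0.41 for HPC-1. Deleted HSC held 97, 45, 0 and 17 counts against 171, 180, 391 and 39 in control HSC, so the size depends on the prior count. In MPP, Bcam stood at 9.67, 11.7, 4.65 and 10.2 CPM in deleted mice and at 14.2, 30.2, 31.5 and 28.3 CPM in control mice. Fbp1, the gluconeogenic fructose-bisphosphatase, was at -1.36 ± 0.26 (0.0910), and Macroh2a2, the histone variant macroH2A2, at -1.55 ± 0.29 (0.0876). Macroh2a2 had at most 7.44 CPM in deleted and 3.96 to 13.1 CPM in control libraries. Serpinf1, a secreted inhibitor of vessel growth, was at -0.80 ± 0.15 (0.0863), Mdga1, an adhesion molecule anchored by lipid, at -0.69 ± 0.12 (0.0803), and Dipk1b at -0.48 ± 0.09 (0.0999).

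Of the other genes lower in 12 of 12, Hmox1, haem oxygenase, was at -1.91 ± 0.45 (adjusted p = 0.18), with 3.00, 5.06, 0.775 and 4.48 CPM in deleted MPP and 7.91, 8.03, 9.74 and 15.001 CPM in control MPP. In deleted HSC it had 0, 44, 2 and 72 counts against 55, 66, 113 and 88 in control HSC, so its size depends on the prior count. Gclm, a subunit of the enzyme that limits glutathione synthesis, was at -0.45 ± 0.13 (0.33). These 2 were picked from the 69 after their values were seen. Gata2, a transcription factor that stem cells need, was lower in 12 of 12 by a small amount, -0.22 ± 0.11 (adjusted p = 0.59). In HSC it stood at 379, 449, 448 and 380 CPM in deleted mice and at 543, 515, 500 and 418 CPM in control mice, which overlap.

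None of the lists that follow held a call. Over all genes tested, 46.9% lay above 0. Of 13 genes of the NuRD chromatin remodelling complex, which binds PHF6, 2 lay above 0, with a median of -0.10 and no member consistent. Of 30 S phase genes 9 lay above 0 (median -0.12), and of 30 G2 and M phase genes 3 did (median -0.17). By mouse, the G2 and M phase median was 0.21, 0.21, 0.03 and -0.79 in deleted mice and 0.13, 0.14, 0.07 and 0.0038 in control mice, so deleted mouse 4 stood apart from the rest. All 7 basement membrane genes tested lay below 0, with a median of -0.76 and no call; Col4a1, a chain of type IV collagen, was at -0.77 and lower in 11 of 12. In 16 TNF and NF-kB target genes the median was -0.06, with Cxcl10, a chemokine that interferon gamma also induces, at 2.30 and higher in 11 of 12 (no call). Of 12 genes near Phf6 on the X chromosome, 8 lay above 0 with a median of 0.09, and none passed. Medians of the remaining lists lay between -0.16 (erythroid markers) and 0.84 (2 members of the Serpina3 cluster), without a call.

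Whether the effect of deletion differed between the populations was tested for each gene with the mouse as a block. No gene passed after adjustment with limma, and 563 had an unadjusted p under 0.05 (4.38%). Leaving aside provisional symbols such as Gm4951, the lowest p-values were those of Stk24, Rnf121 and Lars2. Stk24, a kinase of the STE20 family, had effects of -0.74 for HSC, 0.49 for MPP and -0.08 for HPC-1, with an unadjusted p of 6.38e-05 (adjusted p = 0.82). Among the 13 called genes the lowest unadjusted p was that of Gm4951, followed by Sdsl at 0.0162, whose log2 differences were -0.65 for HSC, -1.50 for MPP and -1.23 for HPC-1, and by H2-Ab1 at 0.0221, with 0.85, 1.36 and 0.60. A p that misses the threshold does not show that the 3 populations responded alike.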

How the data were processed

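RNA of 24 libraries was sequenced as paired-end reads, from HSC, MPP and HPC-1 of 4 Phf6-deleted and 4 control mice. The values used are whole-number counts per gene that the authors deposited; the submitters' processing notes name bcl2fastq, featureCounts and build mm10, while the sources used here name neither aligner nor annotation nor strand setting. The series table was used, and each sample file held the same values. Gene names came from RefSeq (25275 of 27179 rows), from GENCODE for 18 rows, and 1886 rows had no name. No 2 libraries of a group agreed within sampling noise.

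Counts were scaled by TMM within each population (edgeR 4.0.16, R 4.3.3) and turned into log2 CPM with a prior count of 2. Genes that passed filterByExpr (minimum count 10, minimum total 15) in every population were kept, 12843 in all. The shared effect, and the effect in each population, were tested with limma 3.58.1 (variance trend over the mean log2 CPM, robust), adjusting p-values by Benjamini-Hochberg across the tested genes, at a threshold of 0.05. A mouse gives 1 value in the shared test, since its 3 libraries are not independent; edgeR's quasi-likelihood test, DESeq2 1.42.0 and limma-voom were alternatives. The difference between populations was a moderated F test with the mouse as a block. The variance trend was first run over centred values; this was corrected after results had been seen, and both other versions of the trend were added as alternatives after seeing the data. The procedure was tested on simulated counts with known changes of equal size in the 3 populations. The simulation had the same relative spread for all genes and no library set off from the rest. It therefore does not show how the calls hold up in these data.

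Replicate numbers pair littermates, since the labels state that a number marks a litter. Across genes, deviations of same-litter mice correlated at 0.049, 0.043, 0.198 and 0.149, and those of mice of different litters at -0.271 to 0.138. Depth was 9658167 to 27786830 counts a library. Genes were named by rule: Phf6, the consistent genes with the lowest p (provisional symbols left out of the ranks), list members with the lowest p, and the 3 lowest p-values of the test between populations; other called or consistent genes and list members were named after their values were seen. The members and lists were chosen with earlier results of these data known. Promoter sequences are from RefSeq GRCm38.p6.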

Additional observations from a re-analysis of the deposited data

Results flagged for a closer look

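Among 140 groups of 4 mice, 9 had 1 mouse set apart from the other 3 by a gap that took up more than 0.829 of the range, where chance gives about 1 in 20. Values are mouse values on the log2 scale, centred within population. In Macroh2a2 deleted mouse 3 lay at -1.54, with the other deleted mice at -0.608 to -0.45, and control mouse 1 at 0.641, with the other controls at 0.806 to 0.832. For Rsad2, control mouse 1 lay at -0.518, close to the other controls at -0.591 to -0.587, and the gap is small in itself. For Slc6a15, control mouse 4 lay at -1.27, with the others at -0.673 to -0.592. Irf5, a transcription factor of myeloid cells, was at 0.626 in deleted mouse 4 and at -0.0465 to 0.0497 in the other deleted mice. In Gata3, a T-lineage factor, deleted mouse 3 was at -0.694 and the others at -0.176 to -0.153. Nkg7, a granule protein of killer cells, was at 0.32 in deleted mouse 3 and at -0.507 to -0.374 in the others. Klf1, the erythroid factor, was at 1.08 in control mouse 4 and at 0.179 to 0.272 in the other controls. Bub1, a spindle checkpoint kinase, was at -0.0413 in control mouse 1 and at 0.258 to 0.305 in the other controls.

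The effect had opposite signs in 4 of 4 litters of different populations for 2 genes named by their low p in the test between populations. Stk24 was lower in deleted mice in all litters of HSC and HPC-1 and higher in all litters of MPP (unadjusted p = 6.38e-05). Lars2, the mitochondrial leucyl-tRNA synthetase, was lower in all litters of HSC and higher in all of HPC-1 (unadjusted p = 0.000788). Neither passed the adjustment over all genes with limma (adjusted p = 0.82 and 0.94).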

How the results depend on the processing

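The shared comparison called 13 genes. RLE size factors and a filter passed in 1 population left that count at 13, library totals gave 12, and prior counts of 0.5 and 5 gave 13 and 14. Leaving out 1 mouse gave 4 to 26 calls, and without any filter 3 genes passed. Leaving out the HSC, MPP or HPC-1 libraries gave 23, 8 and 2 calls. With the litter as a replicate block the count was 11, of which 9 were among the 13, and the HPC-1 count moved to 96; calls in single genes that the block changed stand in the report. Chosen after seeing the data, no trend of the variance gave 5 calls and the trend over centred values 6. edgeR on counts summed per mouse called 9, 8 of them among the 13. Of the fits on 24 libraries, edgeR with 109 calls and DESeq2 with 267 treated the libraries of a mouse as separate. The limma-voom fit, with the mouse as a random effect, modelled them as correlated (0.135) and called 59. The cause of these shifts was not tested.

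Consistent genes numbered 478 without HSC, 277 without MPP and 459 without HPC-1 (8 differences each), and 152 to 341 without 1 mouse or the MPP library of deleted mouse 3; fewer differences have to share a sign there. Library totals gave 52 higher and 79 lower, against 63 and 69.

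In MPP, calls were 4 with RLE, 3 with library totals, 3 with a filter in 1 population, 1 without a filter, 3 without a trend, 4 with edgeR and 2 to 25 without 1 mouse or library, the highest without deleted mouse 3. In HSC they were 0 without a filter, 0 without a trend and 0 to 1 without 1 mouse. In HPC-1 they were 2 without a filter, 1 without a trend and 5 to 23 without 1 mouse. The test between populations gave 2 calls without a filter.

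The interferon, GTPase and class II medians stayed above 0 throughout. Others moved. The NuRD median was -0.1418 with library totals, -0.05226 without HSC, -0.1586 without HPC-1 and -0.1418 to -0.07984 without 1 mouse. The Serpina3 median was 0.3383 with a filter in 1 population, 0.1802 without a filter and 0.2391 without HPC-1. The basement membrane median was -0.2012 without a filter, -0.2832 without MPP and -0.1476 with edgeR on sums. The p53 median was -0.2724 with edgeR on sums, -0.2329 with limma-voom and -0.3364 to -0.1007 without 1 mouse. The endothelial median was -0.3597 to 0.1138 without 1 mouse, and that of genes near Phf6 was -0.05506 without MPP and -0.04674 to 0.1292 without 1 mouse or library. Without MPP, amino acid transporters had 0.1477, HSC identity -0.08207 and S phase 0.02028, and edgeR on sums gave megakaryocyte genes 0.3079.

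Signs turned for 7 genes, none called. Without HSC, Csf1r was at -0.013, Klrb1c at -0.0996, Mcpt8 at -0.08652, Stk24 at 0.2041 and Rnf121 at 0.09755. Without MPP, Klrb1c was at -0.04661, and without HPC-1, Lars2 at -0.1361. Without 1 mouse, Csf1r ranged from -0.0005902 to 0.8935 and Klrb1c from -0.1753 to 0.3624. edgeR on sums put Itga2b at 0.08449. Genes with few counts, such as Lin28b, are limited by depth.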

Other observations

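In the basement membrane list the laminin chain Lama5 lay at -1.08 (adjusted p = 0.27) beside Col4a1 (0.36). Of its 7 members tested, 3 had an unadjusted p under 0.05, all of them lower. Over all genes tested, 4.45% were lower with an unadjusted p under 0.05. Of the 69 genes with all 12 differences below 0, Nectin2, an adhesion molecule, had a value of -1.18 (adjusted p = 0.33) and Krt80, a keratin, -2.09 (0.17). Both were picked after their values were seen. Krt80 had 0, 13, 14 and 38 counts in deleted HSC against 28, 20, 69 and 90 in control HSC, so its size depends on the prior count. In the T and NK, B and endothelial marker lists, 3, 5 and 4 genes passed the filter on low counts, so these lists say little on rare cells.

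Slamf1, the CD150 gene, was lower in deleted mice in 11 of 12 differences, with a shared value of -1.48 that rests on few counts outside HSC. In HSC it stood at 47.1, 38.5, 9.08 and 53.8 CPM in deleted mice, against 53.2, 65.5, 88.0 and 67.1 CPM in control mice. Deleted mouse 3 was the lowest by far. The gene served in the sort, and whether the gate differed between mice was not tested.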
